A study of Homo sapiens with 12 samples.

Results

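The change between 12 h and 48 h in cells under CsA was measured with 6 of the 12 Affymetrix arrays of the study. They are the 3 arrays titled CsA at 48 h and the 3 titled CsA at 12 h, and the 10650 genes that passed a filter on low values were tested out of 19775 with a value. HK-2, an epithelial cell line immortalised from the proximal tubule of a human kidney, was grown in medium with EGF, hydrocortisone, insulin, transferrin and selenite. The cells were seeded 24 h before treatment, were close to confluent when the compound was added, and received CsA or the control, which is the vehicle. CsA is read as cyclosporine A; the labels give no dose. The other 6 arrays, 3 of control cells at 12 h and 3 at 48 h, enter the estimate of spread and are set beside the CsA values. Each group has 3 biological replicates, and the labels do not say whether these were separate thaws, passages or wells, so the p-values measure the spread between these samples.

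Cyclosporine A is a cyclic peptide that binds cyclophilins, and the complex blocks the phosphatase calcineurin and so the nuclear entry of NFAT factors. It is used to suppress the immune system, and injury to the kidney is a well known side effect. In a dish, cells also change with time without any drug: they fill the surface, use up nutrients and growth factors, and leave the cell cycle. A comparison of late with early cells under the drug holds both kinds of change.

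The values are GCRMA expression values on the log2 scale, so a difference of 1 is a 2-fold change, and each gene is read from the 1 probe set with the highest mean. Array medians ran from 2.85 to 2.96, and between 38.3% and 38.8% of probe sets on an array were above 4. Epithelial and mesenchymal culture markers were present, with 6 of 6 above the filter (KRT8, KRT18, KRT19, CDH1, CDH2 and VIM). Of 11 proximal tubule markers with a value, 1 passed: PAX8, a kidney transcription factor, was at 10.70 at 12 h and 11.08 at 48 h. LRP2, CUBN, AQP1, SLC34A1 and the others stayed below it, between 2.19 and 3.70 in the CsA groups, so these markers were not measurably present.

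Arrays at 48 h varied more than those at 12 h, and 1 of them stood apart. A gene's standard deviation over 3 arrays had a median of 0.117 in CsA 12 h and 0.286 in CsA 48 h, against 0.123 and 0.213 in the control groups. Within CsA 48 h the correlation across tested genes was 0.982 between replicates 1 and 2 and 0.930 between replicates 1 and 3, while no pair of CsA 12 h arrays was below 0.9921. CsA 48 h replicate 3 lay closer to the 12 h arrays. The slope of each CsA 48 h array's change on the time change in control cells was 1.16, 0.86 and 0.25 for replicates 1, 2 and 3. On the mean of the other 2 CsA 48 h arrays it was 1.47, 0.94 and 0.21. Control 48 h replicate 3 also had the lowest slope of its group, 0.77 against 1.40 and 1.13. What sets the third replicate apart was not tested. Counts of list members called are given below with it and without it.

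Across all tested genes limma called 1496 (14.0%) at an adjusted p under 0.05, 707 higher at 48 h (6.64%) and 789 lower (7.41%). Of these, 220 rose and 203 fell by at least 2-fold, and 25 and 23 by at least 4-fold. The median change of all tested genes was 0.01. The count rests on the design of the fit. The fit takes 1 spread per gene from all 12 arrays, while the 48 h arrays varied more, and with the 6 CsA arrays alone (4 residual degrees of freedom) it called 30 genes (0.282%), each at an adjusted p of about 0.049. When those 6 arrays were fitted with a variance trend and robust moderation, it called 0, with 2738 genes at an unadjusted p under 0.05.

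Leaving out CsA 48 h replicate 3 raised the count to 3923 (36.8%), with 2097 higher (19.7%) and 1826 lower (17.1%), and 1462 of the 1496 genes were among them. Leaving out any other CsA array lowered it. The counts were 551 and 778 without 48 h replicates 1 and 2, and 518, 582 and 418 without 12 h replicates 1, 2 and 3. A core of 360 genes (175 higher, 185 lower) was called in all 6 of these fits, and a gene is said below to be in the core where it was. The 6 CsA arrays did not overlap between the times for 3698 genes (34.7%), 1705 higher and 1993 lower.

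**Figure D1:**
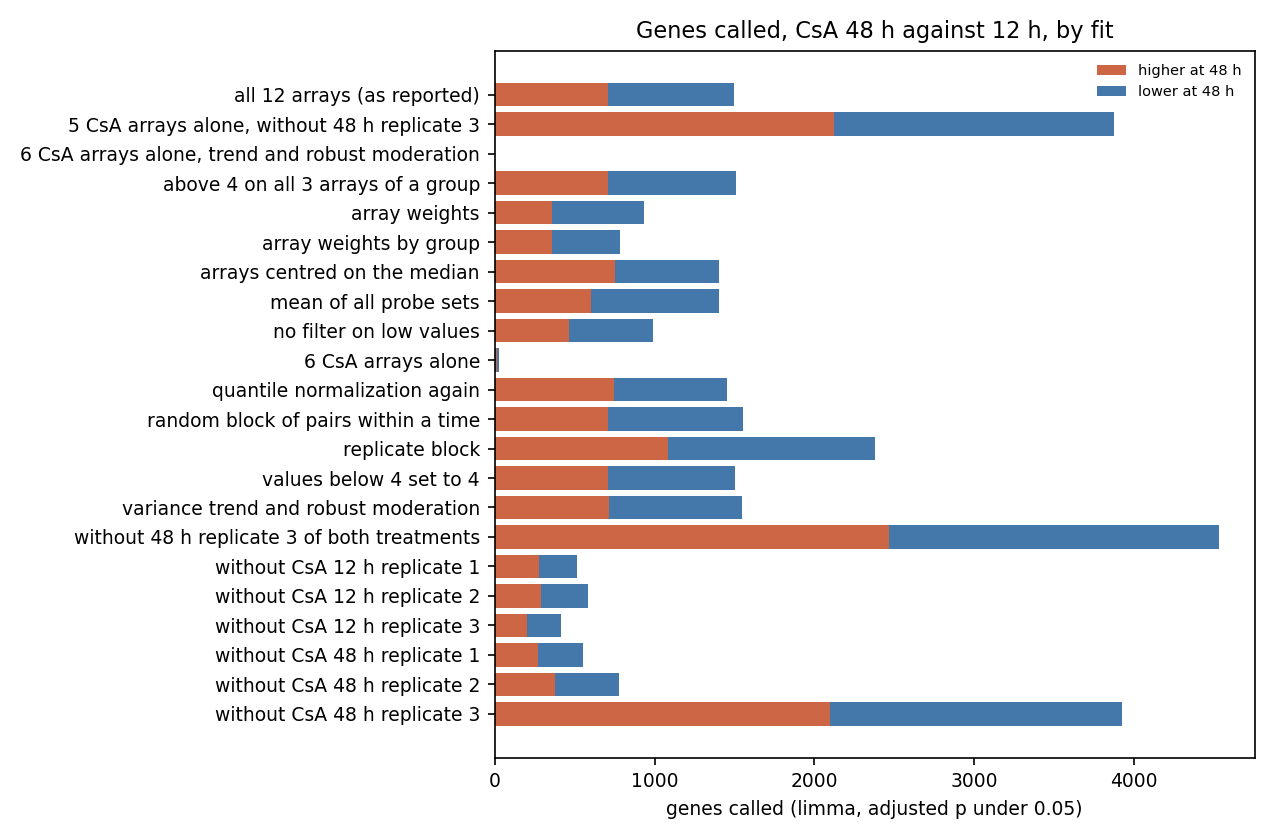
Number of genes called higher (orange) and lower (blue) at 48 h than at 12 h under CsA, in the fit as reported and in every alternative fit run. The bar is longest at 4527 genes without replicate 3 of both 48 h groups, and there is none where the 6 CsA arrays alone were fitted with a variance trend and robust moderation.

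Among the genes with the largest falls were secreted, cytoskeletal and transcription factor genes. TNFAIP6, a secreted hyaluronan-binding protein (probe set 206025_s_at), was at 7.84, 7.98 and 8.70 at 12 h and at 2.37, 3.27 and 5.27 at 48 h (log2 change -4.54, SE 0.73, adjusted p = 0.0059). The 3 late arrays were all below the early ones, as the choice required. Since 2 of them were under 4, the value used as the filter on low values, the fold was 13.5 lower with values under 4 set to 4 and 23.2 as deposited. NAV3, a microtubule-binding protein (204823_at), was at 6.75, 5.52 and 6.88 and then at 2.27, 2.42 and 2.84 (adjusted p = 0.0053). All 3 late arrays were under 4, so NAV3 was at least 5.22-fold lower, its 12 h mean against 4. SOX9, a transcription factor that marks repairing tubule cells (202936_s_at), was at 8.23, 8.66 and 8.31 and then at 5.14, 6.01 and 6.16, 6.20-fold lower (adjusted p = 0.0020). NAV3 and SOX9 were both called with the 6 CsA arrays alone (adjusted p = 0.049 each).

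FOSL1, an AP-1 subunit induced by growth factors, went from 8.51, 7.97 and 8.37 to 4.49, 5.66 and 6.49 (6.66-fold lower, adjusted p = 0.0072). CXCL5, a chemokine that attracts neutrophils, went from 8.81, 8.72 and 9.23 to 6.17, 5.97 and 7.62 (5.03-fold lower, adjusted p = 0.0094). NEFL, the light neurofilament chain, went from 7.14, 8.06 and 7.74 to 4.89, 5.86 and 4.98 (5.28-fold lower, adjusted p = 0.0054). The late arrays lay below the early ones in each of these genes, as the choice required. ZBED2 (9.28-fold, with 1 late array under 4), DPYSL3 (5.88-fold), CCBE1 (4.98-fold) and DDIAS (4.85-fold) also fell, and each of the genes named so far as falling was in the core. MCM10, NCAPH, BLM and LRRN4 completed the 15 largest falls, at 9.42-fold, 5.40-fold, 5.19-fold and 5.74-fold lower, with 1 late array under 4 in MCM10 and in BLM. These 4 were not in the core. Of the 6 fits that left out 1 CsA array, the one without CsA 48 h replicate 3 alone called them.

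TXNIP, an arrestin-like protein that limits glucose uptake and binds thioredoxin (201010_s_at), was low in 2 of the 3 late arrays. It was at 8.78, 8.83 and 9.58 at 12 h and at 3.77, 2.96 and 8.55 at 48 h, so replicates 1 and 2 were far lower and replicate 3 lay just below the early arrays. The fold was 15.7 lower over the 3 arrays (log2 change -3.97, SE 1.12, adjusted p = 0.042), or 11.7 with the 2 values under 4 set to 4, and the log2 change was -5.70 without CsA 48 h replicate 3 (adjusted p = 5.83e-05). It was called in no other fit that left out 1 array, where the adjusted p reached 0.14.

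The largest rises mixed a lipase, a kinase, a transporter and stress factors. PLA1A, a secreted phospholipase (219584_at), was at 4.43, 5.38 and 3.16 at 12 h and at 8.93, 7.90 and 6.04 at 48 h, 9.85-fold higher (log2 change 3.30, SE 0.73, adjusted p = 0.019). PRKCB, a protein kinase C isoform (209685_s_at), was at 5.40, 5.38 and 3.94 and then at 8.70, 8.09 and 7.57, 9.26-fold higher (adjusted p = 0.0052). HPN, the membrane serine protease hepsin (204934_s_at), was at 5.64, 4.97 and 5.39 and then at 7.98, 7.67 and 7.86, 5.67-fold higher (adjusted p = 0.0015). In all 3 genes no late array overlapped an early one, as the choice required, and 1 early array of PLA1A and of PRKCB was under 4. SLC44A5, a choline transporter-like protein, rose at least 5.17-fold from 3 early arrays under 4. SULT1C2, a cytosolic sulfotransferase, rose 5.88-fold, and CREBRF, a regulator of CREB3 factors, 5.66-fold.

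RAB17, a small GTPase of epithelial trafficking (5.45-fold), PELI2, a ubiquitin ligase of Toll-like receptor signalling (4.86-fold), DORIP1 (at least 4.32-fold) and FAM228B (5.14-fold) rose too. All of these rising genes but PLA1A were in the core. The adjusted p of PLA1A reached 0.074 when 1 array was left out. HPN, SLC44A5, CREBRF and PELI2 were also called with the 6 CsA arrays alone. ZNF467 (5.78-fold), LINC01003 (at least 2.28-fold) and PAIP2B (at least 4.32-fold) were outside the core, and in ZNF467 the late values were 8.72, 7.88 and 5.64. DORIP1, LINC01003 and PAIP2B, like SLC44A5, were under 4 on all 3 early arrays and passed the filter only through groups where they are higher. DDIT3 and ATF3, the remaining 2 of the 15, are described with the amino acid response.

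**Figure D2:**
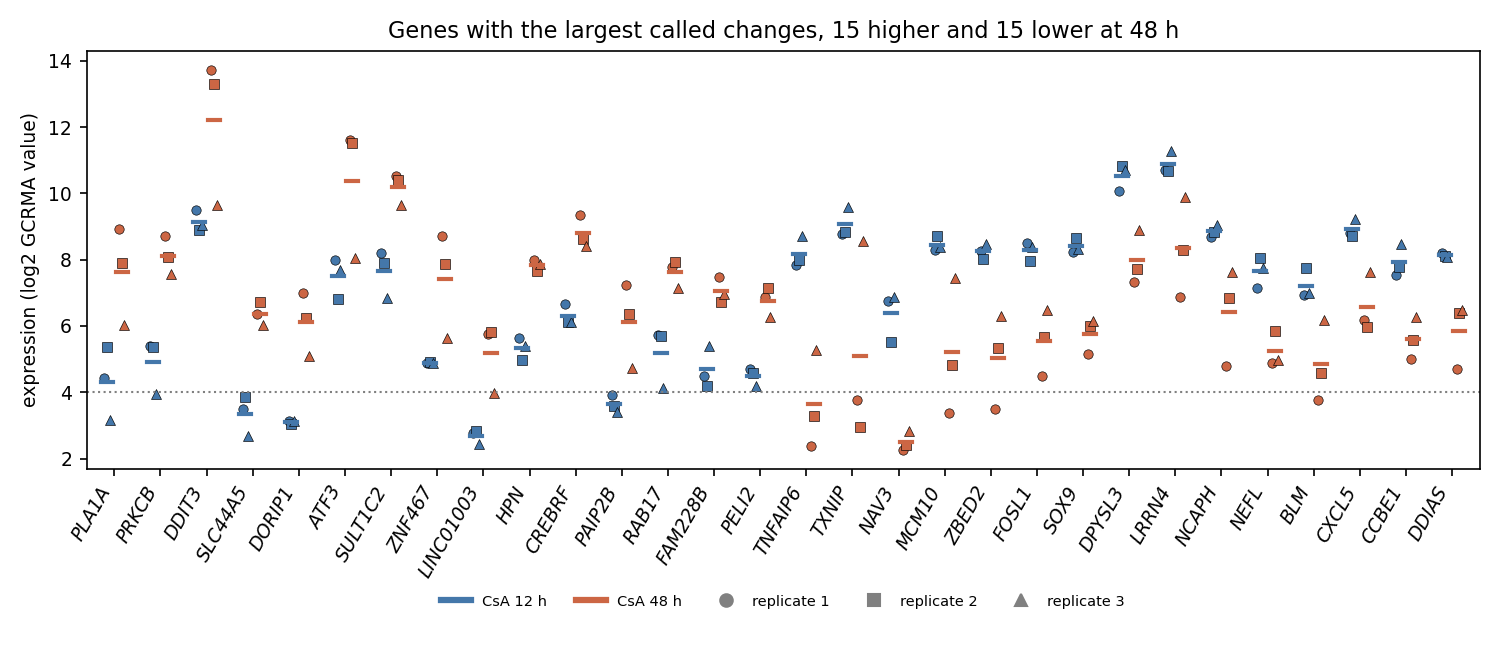
Expression (log2 GCRMA value) of the 15 rising and 15 falling genes with the largest called change, in each CsA array at 12 h (blue) and 48 h (orange), with replicates as circles, squares and triangles, group means as bars and the filter value of 4 as a dotted line. In TXNIP, DDIT3 and ATF3 the triangle at 48 h lies near the 12 h values. In HPN all 3 late arrays lie together, and in NAV3 all 3 lie under the dotted line.

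All 38 tested genes of a list of mitosis and G2/M had a mean change below 0. Of these, 10 fell and 0 rose (26.3% called, against 7.41% lower among all genes), with a median change of -1.10 where that of all genes was 0.01. The list's median was -1.88, -1.13 and -0.32 in CsA 48 h replicates 1, 2 and 3. CDC20, which activates the anaphase-promoting complex (202870_s_at), was at 11.22, 11.40 and 11.58 at 12 h and at 9.93, 10.29 and 10.79 at 48 h, 2.09-fold lower (log2 change -1.06, SE 0.22, adjusted p = 0.015). BUB1, a kinase of the spindle checkpoint (209642_at), was at 9.84, 10.08 and 9.89 and then at 8.80, 8.85 and 9.29, 1.94-fold lower (adjusted p = 0.018). CENPE, a kinetochore motor (205046_at), was at 8.66, 8.89 and 8.89 and then at 6.46, 7.30 and 7.95, 2.99-fold lower (adjusted p = 0.020). In all 3 genes the late arrays lay below the early ones and replicate 3 was the highest of them.

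The other mitosis genes that fell, chosen after their values were seen, ran from 1.90-fold lower for TPX2, a spindle assembly factor, to 2.91-fold for BIRC5, the passenger complex subunit survivin. They include FOXM1, the transcription factor of the G2/M programme (8.43, 8.61 and 8.63, then 6.35, 7.38 and 7.94), AURKA, CCNB1, NUF2 and BUB1B. None of the 10 was in the core. Without CsA 48 h replicate 3, 38 of the 38 were called lower (17.1% of all genes were) and the median was -1.49. The late arrays did not overlap the early ones in 29 of the 38, against 34.7% of all genes.

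Promoters of these genes are known for a CCAAT box and a cell cycle homology region (CHR), through which the DREAM and FOXM1 complexes act. The 250 bases before the start of the 3 mitosis genes named first are shown, since these genes fell together. They come from RefSeq on GRCh38.p14 and are read 5′ to 3′ on the gene's strand. Capitals mark CHR (TTTGAA or TTTAAA) and CCAAT, each on either strand, and a base can belong to both. CDC20 is at chr1:43358731-43358980 (plus strand), BUB1 at chr2:110678064-110678313 (minus strand) and CENPE at chr4:103198344-103198593 (minus strand).
CDC20: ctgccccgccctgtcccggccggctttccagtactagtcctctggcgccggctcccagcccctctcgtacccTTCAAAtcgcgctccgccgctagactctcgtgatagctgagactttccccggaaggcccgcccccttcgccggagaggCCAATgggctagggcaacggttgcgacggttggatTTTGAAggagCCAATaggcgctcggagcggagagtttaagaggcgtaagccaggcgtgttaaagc
BUB1: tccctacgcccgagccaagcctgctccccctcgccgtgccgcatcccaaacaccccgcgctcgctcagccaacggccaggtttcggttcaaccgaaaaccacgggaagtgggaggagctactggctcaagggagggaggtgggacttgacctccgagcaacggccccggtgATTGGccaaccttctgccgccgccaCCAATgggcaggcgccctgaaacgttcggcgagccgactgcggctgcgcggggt
CENPE: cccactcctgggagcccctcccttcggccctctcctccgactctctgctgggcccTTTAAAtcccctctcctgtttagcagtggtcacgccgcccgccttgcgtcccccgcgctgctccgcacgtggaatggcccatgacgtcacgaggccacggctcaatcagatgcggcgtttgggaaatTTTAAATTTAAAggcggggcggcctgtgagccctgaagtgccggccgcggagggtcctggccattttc
The window of CDC20 held both motifs, that of BUB1 only CCAAT and that of CENPE only CHR. Of 32 tested mitosis genes with a promoter in the table, 24 held a CHR match and 25 a CCAAT match, against 22.1% and 33% of all 27305 promoters. Among the 6 called members with a promoter, 4 held CHR and 3 CCAAT. Here and for the motifs below, the share over all promoters includes genes that were not tested, while the list members were all tested.

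DNA replication genes followed a similar course with less in the third replicate. Of 39 tested members 6 fell and 0 rose (15.4% called, against 7.41% lower among all genes), with a median change of -1.15 and array medians of -2.10, -1.16 and -0.06. MCM10, which helps to load and start the replicative helicase (220651_s_at), was at 8.28, 8.70 and 8.38 and then at 3.38, 4.83 and 7.44 (adjusted p = 0.026). ORC6, an origin recognition subunit, was at 10.90, 10.86 and 10.81 and then at 8.77, 9.67 and 10.21 (2.48-fold lower, adjusted p = 0.025). RFC3, a subunit of the clamp loader, was at 9.99, 9.93 and 10.10 and then at 8.16, 8.99 and 9.40 (2.23-fold lower, adjusted p = 0.032). Replicate 3 was the highest late array in each, though still below the early ones. GINS1, CDC45 and POLA2 fell too. None of the 6 was in the core, and without CsA 48 h replicate 3 the count was 36 of 39, against 17.1% lower among all genes. Matches to 4 forms of the E2F site, on either strand, were counted: the form TTTGGCG, the second form written TTTCCCG, the third form written TTTCGCG and the last form written TTTGCCG. At least 1 was in 18 of 35 promoters of the list, against 7.35% of all.

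A list of CDK inhibitors and quiescence genes also holds D-type cyclins, which act the other way. Of its 17 tested members 5 were called higher and 3 lower (47.1% called, against 14.0% of all genes). BTG1, an antiproliferative adaptor (200920_s_at), was at 10.69, 10.68 and 10.73 and then at 12.14, 12.07 and 11.23 (2.16-fold higher, adjusted p = 0.0081). CDKN1C, the CDK inhibitor p57, was at 8.07, 8.39 and 7.98 and then at 8.88, 9.19 and 9.10 (1.87-fold higher, adjusted p = 0.011). CCNG2, an unusual cyclin of resting cells, rose 1.42-fold (adjusted p = 0.014), and CDKN1B, the CDK inhibitor p27, 1.55-fold (adjusted p = 0.020). YPEL3 was the fifth. On the falling side were CCND1 and CCND3, D-type cyclins that drive entry into the cycle and are on the list as its counterparts, and TOB1. BTG1 was the 1 member in the core, and without CsA 48 h replicate 3 the list had 6 higher and 5 lower (36.8% of all genes were called).

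Among p53 targets, 3 of 21 rose and 1 fell (19.0% called, against 14.0% of all genes). ZMAT3, an RNA-binding protein, went from 7.89, 7.51 and 7.46 to 8.99, 8.36 and 8.99 (2.23-fold higher, adjusted p = 0.0058), and CCNG1 rose 1.37-fold (adjusted p = 0.017). TP53I3, an oxidoreductase, fell 1.88-fold (adjusted p = 0.0039), and TNFRSF10B, a TRAIL receptor, rose 1.51-fold. ZMAT3 and TP53I3 were in the core, and without CsA 48 h replicate 3 there were 7 higher and 2 lower (36.8% of all genes were called).

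Cytosolic heat shock genes were the list with the largest share called. These chaperones fold and refold proteins in the cytosol under the control of HSF1. Of 14 tested members 8 fell and 0 rose (57.1% called, against 7.41% lower among all genes), with a median change of -0.51. The array medians were -0.59, -0.44 and -0.49, so the third replicate had moved as far as the others. DNAJA1, an HSP40 co-chaperone (200881_s_at), was at 13.14, 12.96 and 12.98 at 12 h and at 12.25, 11.97 and 12.23 at 48 h, 1.84-fold lower (log2 change -0.88, SE 0.11, adjusted p = 0.0039). BAG3, a co-chaperone of HSP70 (217911_s_at), was at 10.31, 10.02 and 10.23 and then at 9.37, 9.14 and 9.06, 2.00-fold lower (adjusted p = 0.0048). HSP90AA1, the inducible HSP90 (211969_at), was at 14.73, 14.84 and 14.83 and then at 13.89, 14.04 and 14.28, 1.66-fold lower (adjusted p = 0.0061). Early and late arrays were apart in all 3.

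The remaining members that fell, chosen after their values were seen, were DNAJB1 (1.90-fold), CHORDC1 (2.12-fold), STIP1 (1.53-fold), HSPH1 (1.50-fold) and HSP90AB1 (1.34-fold). In CHORDC1, an HSP90 co-chaperone, replicate 3 was the lowest late array at 8.92 against 10.04 and 10.12. DNAJA1, BAG3, HSP90AA1 and DNAJB1 were in the core. The count was 8 again without CsA 48 h replicate 3 (17.1% of all genes were lower), and 0 were called with the 6 CsA arrays alone, where the smallest adjusted p of these 8 was 0.058. The arrays did not overlap in 12 of the 14, against 34.7% of all genes.

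The windows before the start of the 3 heat shock genes with the smallest p are shown with matches to a heat shock element (GAANNTTC or TTCNNGAA, either strand) in capitals; this motif was added after the data were seen. DNAJA1 is at chr9:33025023-33025272 (plus strand), BAG3 at chr10:119651130-119651379 (plus strand) and HSP90AA1 at chr14:102139750-102139999 (minus strand).
DNAJA1: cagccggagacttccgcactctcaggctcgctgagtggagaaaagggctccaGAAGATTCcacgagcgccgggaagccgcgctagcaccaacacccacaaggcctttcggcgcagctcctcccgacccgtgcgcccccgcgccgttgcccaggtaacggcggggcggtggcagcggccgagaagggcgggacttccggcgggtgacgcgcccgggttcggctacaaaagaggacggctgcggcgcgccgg
BAG3: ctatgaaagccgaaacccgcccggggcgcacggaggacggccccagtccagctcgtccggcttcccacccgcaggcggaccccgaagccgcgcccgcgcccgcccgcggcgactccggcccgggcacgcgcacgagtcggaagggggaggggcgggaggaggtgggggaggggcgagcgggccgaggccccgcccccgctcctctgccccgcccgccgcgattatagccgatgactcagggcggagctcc
HSP90AA1: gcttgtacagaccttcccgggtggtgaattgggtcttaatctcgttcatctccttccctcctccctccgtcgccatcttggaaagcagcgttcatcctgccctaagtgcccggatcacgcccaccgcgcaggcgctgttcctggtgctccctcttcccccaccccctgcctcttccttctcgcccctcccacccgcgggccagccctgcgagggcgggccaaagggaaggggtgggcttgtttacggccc
DNAJA1 held 1 match and the windows of BAG3 and HSP90AA1 held 0. Only 1 window per gene was searched, so a match before another start of a gene would not show. Matches were in 4 of 12 promoters of the list, and in 2 of the 8 of called members, against 11.7% of all promoters.

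For cholesterol synthesis and uptake, SREBP2 is known to drive the enzymes of the mevalonate pathway when sterols are scarce. Of 18 tested members 6 fell and 0 rose (33.3% called, against 7.41% lower among all genes; 0 were called with the 6 CsA arrays alone), with a median change of -0.70 and array medians of -1.04, -0.26 and -0.77. NSDHL, a sterol dehydrogenase (209279_s_at), was at 10.27, 10.13 and 10.16 and then at 9.16, 9.63 and 8.94, 1.92-fold lower (log2 change -0.94, SE 0.18, adjusted p = 0.012). INSIG1, which retains the SREBP complex in the ER (201626_at), was at 12.44, 12.25 and 12.05 and then at 10.98, 11.20 and 11.52, 2.02-fold lower (adjusted p = 0.017). EBP, a sterol isomerase (213787_s_at), was at 12.29, 12.42 and 12.19 and then at 10.32, 11.22 and 11.49, 2.45-fold lower (adjusted p = 0.020). Replicate 3 was the lowest late array for NSDHL and the highest for INSIG1 and EBP.

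MVD, IDI1 and FDPS, enzymes between mevalonate and farnesyl diphosphate, fell 1.96-fold, 1.90-fold and 1.57-fold and were chosen after their values were seen. Of the 6, NSDHL was in the core, and the count was 7 without CsA 48 h replicate 3 (17.1% of all genes were lower). In control cells 1 member fell with time (13.5% of all genes were called lower there) and the list's median was -0.20. For fatty acid synthesis 1 of 10 fell (10.0%, against 7.41% lower among all genes), the elongase ELOVL6, from 9.77, 9.81 and 9.14 to 7.11, 7.73 and 8.79 (3.23-fold lower, adjusted p = 0.030). Without CsA 48 h replicate 3, 2 of that list fell and 1 rose (36.8% of all genes were called). SREBF1 and ELOVL5 were not called.

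Windows of the 3 cholesterol genes with the smallest p are shown with CACNCCA, a part of sterol response elements, and CCAAT in capitals, either strand; CCAAT was added for these genes after the data were seen. NSDHL is at chrX:152830813-152831062 (plus strand), INSIG1 at chr7:155297628-155297877 (plus strand) and EBP at chrX:48521558-48521807 (plus strand).
NSDHL: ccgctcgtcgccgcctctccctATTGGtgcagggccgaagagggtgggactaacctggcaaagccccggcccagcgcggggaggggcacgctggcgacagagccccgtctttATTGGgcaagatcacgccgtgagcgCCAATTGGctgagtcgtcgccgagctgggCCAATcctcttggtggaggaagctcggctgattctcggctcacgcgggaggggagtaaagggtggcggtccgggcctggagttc
INSIG1: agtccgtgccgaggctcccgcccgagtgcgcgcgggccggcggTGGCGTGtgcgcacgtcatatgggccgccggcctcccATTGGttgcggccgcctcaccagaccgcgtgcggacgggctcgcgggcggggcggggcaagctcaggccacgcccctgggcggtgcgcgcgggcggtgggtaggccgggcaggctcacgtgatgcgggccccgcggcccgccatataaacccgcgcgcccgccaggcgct
EBP: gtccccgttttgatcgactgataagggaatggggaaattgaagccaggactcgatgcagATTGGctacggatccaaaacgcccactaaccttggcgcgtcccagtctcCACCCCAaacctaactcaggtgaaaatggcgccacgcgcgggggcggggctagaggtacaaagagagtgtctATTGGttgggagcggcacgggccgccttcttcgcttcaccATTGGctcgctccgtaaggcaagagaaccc
NSDHL held CCAAT matches only, while INSIG1 and EBP held both motifs. CACNCCA was in 7 of 17 promoters of the list against 14.5% of all, and CCAAT in 15 of 17 against 33%.

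**Figure D3:**
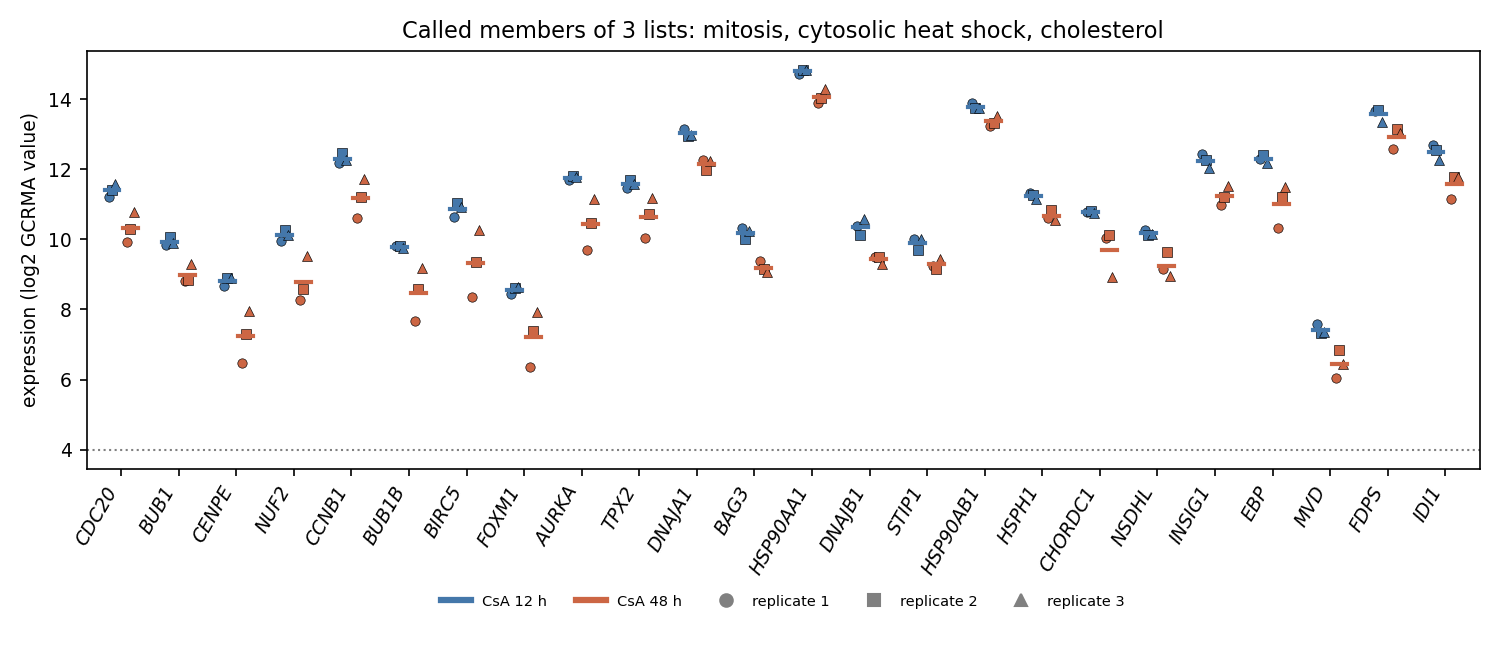
Expression (log2 GCRMA value) in each CsA array at 12 h (blue) and 48 h (orange) of the called members of the lists of mitosis (CDC20 to TPX2), cytosolic heat shock (DNAJA1 to CHORDC1) and cholesterol (NSDHL to IDI1), with group means as bars. Late replicate 3 (triangle) is the highest late array in the mitosis genes and lies among or below the others in DNAJA1, BAG3, DNAJB1 and NSDHL.

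In the amino acid response, ATF4 switches on transporters, synthetases and stress factors when amino acids run short or the ER is stressed. Of 34 tested members 4 rose and 0 fell (11.8% called, against 6.64% higher among all genes), with a median of 0.45 and array medians of 1.14, 1.30 and -0.59. DDIT3, the stress factor CHOP (209383_at), was at 9.50, 8.88 and 9.05 and then at 13.73, 13.29 and 9.66, 8.49-fold higher (log2 change 3.09, SE 0.85, adjusted p = 0.039). ATF3, a stress-induced repressor (202672_s_at), was at 8.0, 6.81 and 7.69 and then at 11.60, 11.52 and 8.04, 7.40-fold higher (adjusted p = 0.045). In both, replicate 3 was only just above the highest early array. GDF15, a secreted stress hormone, rose 2.72-fold (adjusted p = 0.022) and SLC38A2, a neutral amino acid transporter, 1.37-fold (adjusted p = 0.043). None of the 4 was in the core, and without CsA 48 h replicate 3 the count was 21 of 34 (19.7% of all genes were higher).

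In control cells 23 members rose and 1 fell with time, and the list's median was 1.60. Among all genes 12.4% were called higher in controls and 13.5% lower. A TGATGNAA match was in 3 of 27 promoters of the list, against 3.19% of all.

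No gene of the list of ER chaperones and the unfolded protein response was called by limma, out of 29, and 3 had an unadjusted p under 0.05, where 33.0% of all genes did. Array medians were 1.27, 0.71 and -0.28. ERN1, the ER stress sensor IRE1, was at 6.88, 6.09 and 5.91 and then at 10.29, 10.35 and 6.45 (adjusted p = 0.058). HSPA5, the main ER chaperone BiP, was at 14.70, 14.22 and 14.55 and then at 15.61, 15.28 and 13.49 (adjusted p = 0.71), with the third late array below all early ones. XBP1 (adjusted p = 0.091) and ATF6 (adjusted p = 0.054) were not called either. Without CsA 48 h replicate 3 the adjusted p was 3.48e-04 for ERN1, 0.0019 for XBP1, 0.0032 for ATF6 and 0.061 for HSPA5. In that fit 10 of 29 were called higher, against 19.7% of all genes. Over all 3 late arrays another probe set of XBP1 had the opposite sign (-0.22). Another probe set of HSPA5 had a log2 change of 1.37, against 0.30 for the one used. In control cells 9 of the list were called higher, against 12.4% of all genes. Among cytosolic aminoacyl-tRNA synthetases 1 of 17 was called (5.88%, against 14.0% of all genes), HARS1, which fell 1.69-fold (adjusted p = 0.0072) and was in the core. Without CsA 48 h replicate 3 the synthetases had 8 higher and 1 lower, against 36.8% of all genes called.

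**Figure D4:**
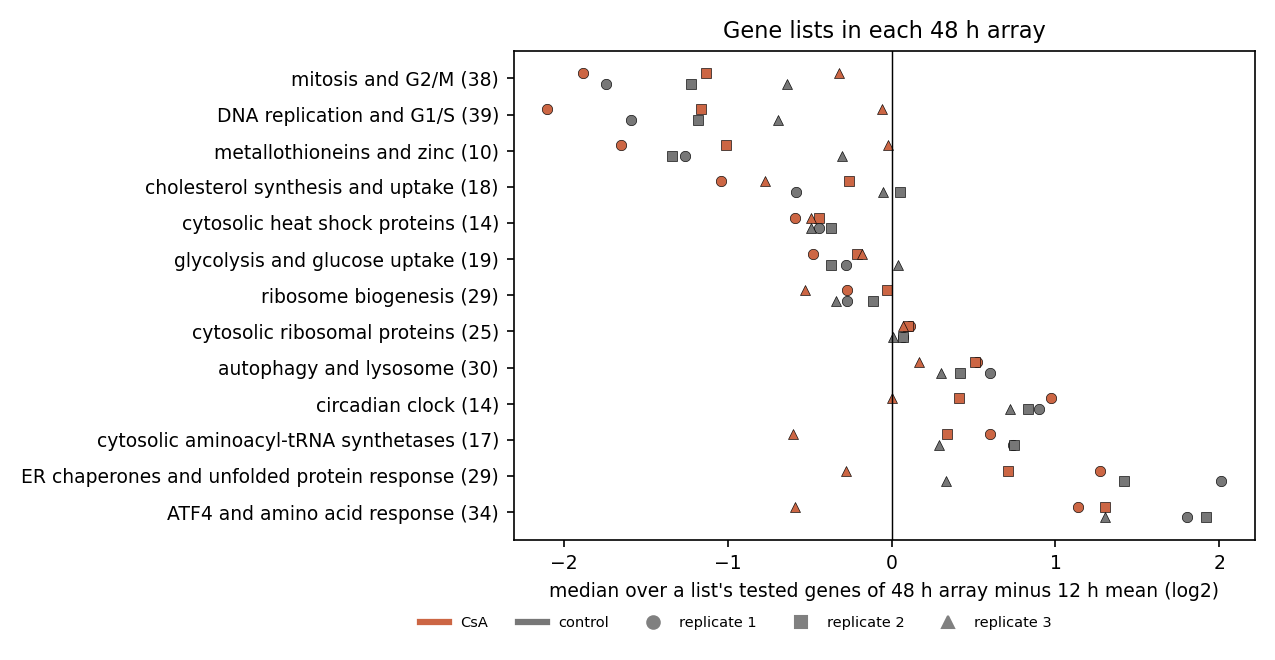
Median over the tested genes of each list (number in brackets) of a 48 h array minus the 12 h mean of its treatment (log2), for CsA (orange) and control (grey) arrays, with replicates as circles, squares and triangles. The third CsA array lies on the other side of 0 from the first and the second in the lists of ATF4 and amino acid response, ER chaperones and aminoacyl-tRNA synthetases, and among them in cytosolic heat shock and cholesterol.

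Of 19 tested genes of glycolysis and glucose uptake 5 fell and 1 rose (31.6% called, against 14.0%), with a median of -0.28. PKM, the pyruvate kinase (201251_at), was at 13.35, 13.47 and 13.53 and then at 12.43, 12.73 and 12.88 (1.70-fold lower, adjusted p = 0.011), and it was the member in the core. PGK1, phosphoglycerate kinase, was at 13.91, 13.97 and 14.01 and then at 13.31, 13.42 and 13.53 (1.46-fold lower, adjusted p = 0.013). PGAM1, phosphoglycerate mutase, fell 1.71-fold (adjusted p = 0.024), and ALDOA and PFKFB4 fell 1.50-fold and 1.94-fold. SLC2A3, a glucose transporter, rose 1.94-fold (adjusted p = 0.047). Without CsA 48 h replicate 3 the list had 4 higher and 9 lower (36.8% of all genes were called).

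Other hypoxia targets had 3 higher and 1 lower of 20 (20.0% called, against 14.0% of all genes). ADM, the vasoactive peptide adrenomedullin (202912_at), was at 7.38, 6.74 and 6.80 and then at 8.53, 9.24 and 8.21 (3.23-fold higher, adjusted p = 0.0063). BNIP3L, a mitophagy receptor, rose 1.44-fold (adjusted p = 0.011) and EGLN1, an oxygen sensor, fell 1.64-fold (adjusted p = 0.016); MXI1 was the other riser. ADM and BNIP3L were in the core, and without CsA 48 h replicate 3 there were 7 higher and 1 lower (36.8% of all genes were called). ACGTG or GCGTG was in 12 of 16 promoters against 43.1% of all. In the MondoA and TXNIP group 1 of 9 rose and 2 fell (33.3% called, against 14.0% of all genes). Without CsA 48 h replicate 3 the group had 3 higher and 3 lower (36.8% of all genes were called). HBP1, a repressor of cell cycle genes, rose 1.95-fold (adjusted p = 0.013), TXN, thioredoxin, fell 1.31-fold (adjusted p = 0.033), and TXNIP is described above. CACGTG was in 1 of 8 of their promoters, against 6.49% of all. Of 28 oxidative phosphorylation subunits 1 rose (3.57% called, against 14.0% of all genes), NDUFB5 (1.36-fold, adjusted p = 0.011, in the core). Without CsA 48 h replicate 3 these subunits had 2 higher and 4 lower (36.8% of all genes were called).

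Among lysosomal and autophagy genes, of 30 tested members 6 rose and 0 fell (20.0% called, against 6.64% higher), with a median of 0.39 and array medians of 0.52, 0.51 and 0.17. ATP6V1A, a subunit of the proton pump that acidifies lysosomes (201972_at), was at 10.38, 10.33 and 10.10 and then at 11.21, 11.13 and 10.99 (1.79-fold higher, adjusted p = 0.0042). HEXA, which degrades gangliosides, was at 9.34, 9.16 and 8.98 and then at 10.50, 10.03 and 9.90 (1.97-fold higher, adjusted p = 0.015). CTSD, the protease cathepsin D, rose 1.67-fold (adjusted p = 0.018). Early and late arrays were apart in each. MAP1LC3B and GABARAPL1, which coat autophagosomes, and NPC1, a cholesterol exporter of lysosomes, rose too, and another probe set of NPC1 was at -0.06. ATP6V1A was the member in the core, and without CsA 48 h replicate 3 there were 15 higher and 1 lower (36.8% of all genes were called).

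Of 14 tested clock genes 3 rose and 0 fell (21.4% called, against 6.64% higher). BHLHE41, a repressor of CLOCK and BMAL1 (221530_s_at), was at 8.11, 8.27 and 7.42 and then at 9.79, 9.84 and 9.65 (3.54-fold higher, adjusted p = 0.0039). NR1D2, the nuclear receptor REV-ERB beta (209750_at), was at 7.76, 7.26 and 8.31 and then at 9.62, 9.18 and 9.37 (3.05-fold higher, adjusted p = 0.0066). Both were in the core, with late arrays close together. CIART was at 7.03, 7.07 and 5.33 at 48 h and rose 2.90-fold (adjusted p = 0.040). The list had 6 higher without CsA 48 h replicate 3, against 19.7% of all genes. CACGTG was in 4 of 14 promoters. The times are not a whole number of days apart, so elapsed time and phase of the clock cannot be told apart.

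Ribosome biogenesis had 4 of 29 lower and 0 higher (13.8% called, against 7.41% lower). NOLC1, a nucleolar chaperone, was at 12.36, 12.28 and 12.31 and then at 11.58, 11.91 and 11.84 (1.46-fold lower, adjusted p = 0.017). TCOF1, which promotes ribosomal DNA transcription, was at 8.05, 8.01 and 8.12 and then at 6.33, 7.11 and 7.44 (2.14-fold lower, adjusted p = 0.023). NAT10 and UTP20 fell 1.35-fold and 1.78-fold, and none was in the core. The list had 5 lower without CsA 48 h replicate 3, against 17.1% of all genes. Of 25 cytosolic ribosomal proteins 1 was called (4%, against 14.0% of all genes), RPL3 (1.28-fold higher, adjusted p = 0.020), and the median was 0.09. Without CsA 48 h replicate 3 that list again had 1 higher, against 19.7% of all genes.

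Of the lists of matrix, mesenchymal, YAP and junction genes, none had more than 12.0% of its tested members called, against 14.0% of all genes. Without CsA 48 h replicate 3 the share of all genes called was 36.8%. PLAT, the tissue plasminogen activator, was at 10.36, 10.06 and 10.50 and then at 7.60, 8.39 and 8.81 (4.11-fold lower, adjusted p = 0.014), PLAUR fell 3.50-fold (adjusted p = 0.031) and LAMB1, a laminin chain, rose 1.60-fold (adjusted p = 0.0053, in the core), 3 of 30 matrix genes in all (1 higher and 8 lower without CsA 48 h replicate 3). Among TGF-beta and mesenchymal genes TWIST1 and TGFBI fell (1.61-fold and 1.72-fold) and TGFB1 rose (1.71-fold), 3 of 25, and TGFB1 lost its call whichever CsA array was left out. The TGF-beta list had 11 lower and 0 higher without CsA 48 h replicate 3, where 17.1% and 19.7% of all genes were called. In the YAP and TAZ list F3, tissue factor, fell 2.71-fold (adjusted p = 0.0066) and MYOF rose 1.50-fold (adjusted p = 0.0055), 2 of 22 and both in the core (2 higher and 4 lower without CsA 48 h replicate 3). EPCAM (1.42-fold higher, adjusted p = 0.036) was the 1 of 26 junction and keratin genes called (5 higher and 2 lower without CsA 48 h replicate 3).

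Of 16 kidney injury markers SOX9 and VCAM1 fell, the latter from 5.97, 5.98 and 7.30 to 4.55, 4.46 and 5.53 (2.97-fold, adjusted p = 0.033). They were 12.5% of the list, against 7.41% lower among all genes. Without CsA 48 h replicate 3, 6 were lower (17.1% of all genes were). HAVCR1, the injury marker KIM-1, was at 10.31, 10.47 and 10.36 and then at 9.35, 9.77 and 10.23 (adjusted p = 0.15), and without CsA 48 h replicate 3 it was called lower (log2 change -0.82, adjusted p = 0.034). LCN2, the injury marker NGAL, was at 4.21, 5.61 and 4.72 and then at 6.88, 5.26 and 4.72 (adjusted p = 0.38), so its groups overlapped, and it was not called without CsA 48 h replicate 3 (adjusted p = 0.13). Among 15 tested genes of tubule identity ENPEP and SLC4A4 rose (1.84-fold and 1.71-fold) and CA2 fell (1.84-fold, in the core), and another probe set of SLC4A4 was at -0.07. Of this list 20% was called, against 14.0% of all genes. Without CsA 48 h replicate 3 there were 4 higher and 1 lower (36.8% of all genes were called).

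The drug's own targets and their pathway had few calls with all arrays. Of 23 tested cyclophilin, calcineurin and NFAT genes 1 was called (4.35%, against 14.0% of all genes). Without CsA 48 h replicate 3, 4 were higher and 5 lower, a share near the 36.8% of all genes called. NFAT5, a factor of the osmotic response, was at 10.80, 10.66 and 10.60 and then at 11.38, 11.75 and 11.31 (1.73-fold higher, adjusted p = 0.017). PPIA, cyclophilin A, was at 14.88, 14.81 and 14.81 and then at 14.59, 14.78 and 14.72 (adjusted p = 0.32, and 0.26 without CsA 48 h replicate 3). PPIB and PPIF, the ER and mitochondrial cyclophilins, had adjusted p = 0.33 and 0.11. Without CsA 48 h replicate 3 PPIF was called lower (log2 change -0.79, adjusted p = 0.031), and PPIB was not called (adjusted p = 0.16). RCAN1, whose induction reads out calcineurin activity, was at 8.23, 8.04 and 7.96 and then at 8.48, 8.82 and 7.41 (adjusted p = 0.73). It was called higher without CsA 48 h replicate 3 (log2 change 0.58, adjusted p = 0.017). Of 15 drug efflux and xenobiotic genes TIPARP and ABCC1, an efflux pump, rose 1.73-fold and 1.45-fold (adjusted p = 0.0063 and 0.040). That was 13.3% called, against 14.0% of all genes. Without CsA 48 h replicate 3 the efflux list had 2 higher and 3 lower, against 36.8%.

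Among BCL2 family and caspase genes 3 of 24 rose and 1 fell (16.7% called, against 14.0% of all genes). Without CsA 48 h replicate 3 these genes had 6 higher and 4 lower (36.8% of all genes were called). BCL2L11, the death inducer BIM (225606_at), was at 8.65, 8.75 and 8.66 and then at 9.67, 9.62 and 9.54 (1.89-fold higher, adjusted p = 0.0039), and it was also called with the 6 CsA arrays alone (adjusted p = 0.049). BNIP3L and BIK were the others that rose, and APAF1, the scaffold of the apoptosome, fell 2.41-fold (adjusted p = 0.045).

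In the remaining lists few or no genes were called, where 14.0% of all genes were, and 36.8% without CsA 48 h replicate 3. Of 22 NRF2 targets GCLM, a subunit of glutathione synthesis, fell 1.99-fold (adjusted p = 0.018), and without CsA 48 h replicate 3 there were 4 higher and 5 lower. Of 10 metallothionein and zinc genes limma called 0, and 6 had an unadjusted p under 0.05 (33.0% of all genes did), with array medians of -1.65, -1.01 and -0.02, and 8 were called lower without CsA 48 h replicate 3 (17.1% of all genes were). MT2A was at 14.17, 14.23 and 14.36 and then at 12.67, 13.28 and 14.17 (adjusted p = 0.11, and 0.0078 without that array). CXCL5 was the 1 of 22 NF-kB genes, HLA-C the 1 of 31 interferon genes (1.34-fold higher, adjusted p = 0.047) and EGFR the 1 of 11 EGF receptor and ligand genes (1.58-fold higher, adjusted p = 0.024). FOSL1 and IER2 fell among 25 immediate early genes. Fitted without CsA 48 h replicate 3, these lists had 0 higher and 5 lower (NF-kB), 5 and 5 (interferon), 2 and 1 (EGF) and 1 and 4 (immediate early). Of 13 glucocorticoid-responsive genes limma called 0, and 2 had an unadjusted p under 0.05, where 33.0% of all genes did, with 2 higher and 3 lower without CsA 48 h replicate 3. TGACNNNGC was in 4 of 17 NRF2 promoters (11% of all), a core of the interferon-stimulated response element in 15 of 25 interferon promoters (3.07%) and TGCNCNC in 4 of 6 metallothionein promoters (48.4%).

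Markers of other kidney and stromal cells gave 0 calls in limma. Tested markers were 3 of distal nephron, 5 of podocytes, 6 of fibroblasts and pericytes and 3 of endothelium, of which 0, 1, 1 and 0 had an unadjusted p under 0.05 (33.0% of all genes did). A distal nephron marker was called higher and a podocyte marker lower without CsA 48 h replicate 3 (36.8% of all genes were called). In addition, 0 of 13 leukocyte markers passed the filter. Every sample is the HK-2 cell line, and in bulk fewer cells that express a gene and less RNA per cell cannot be told apart.

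Of the 30 genes called with the 6 CsA arrays alone, which take their spread from these arrays only, 17 rose and 13 fell. Further examples, chosen after their values were seen, include NEFH, the heavy neurofilament chain, at 10.81, 11.02 and 10.95 and then at 8.93, 9.49 and 9.40 (3.15-fold lower). PNPLA3, a lipid droplet lipase under SREBP1, was at 8.27, 8.30 and 8.22 and then at 6.91, 7.13 and 7.01 (2.38-fold lower). SHCBP1 (2.27-fold) and POP1, a subunit of RNase P (3.49-fold), fell as well. PRODH, proline dehydrogenase, was at 8.98, 8.74 and 8.43 and then at 10.43, 10.62 and 10.44 (3.43-fold higher), and KLHL24 (4.58-fold), MAP2 (3.74-fold with its 2 early values under 4 set to 4), MYO1D (2.57-fold) and SMPD1, acid sphingomyelinase (2.10-fold), rose. Late replicate 3 lay between the other late arrays in NEFH, PNPLA3 and PRODH.

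The same step in time was measured in control cells. Its group means share no array with those of the CsA comparison, but both tests take 1 spread per gene from all 12 arrays. The 2 sets of calls are thus not independent. For control cells limma called 2749 genes (25.8%), 1316 higher (12.4%) and 1433 lower (13.5%). Of the 1496 genes called under CsA, 1270 were also called in controls, all in the same direction, which is 84.9% of the CsA calls and 46.2% of the control calls; the other 226 were called under CsA and not in controls. Across the 10650 genes, which are not independent, the 2 changes had a correlation of 0.91 and a slope of CsA on control of 0.76. For CsA 48 h replicates 1, 2 and 3 taken singly the slope was 1.16, 0.86 and 0.25, so the third array lowers it. CsA and control arrays that carry 1 number deviated together at 48 h (r = 0.78, 0.54 and 0.74), so these comparisons may share more than time.

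The difference between the 2 time changes was tested directly. Without the pairs limma called 0 genes (0%), with 164 at an unadjusted p under 0.05 (1.54%) and a smallest adjusted p of 1.00. Since same-numbered CsA and control arrays deviated together, the pairs of one time and number were also used as blocks. With a random block it again called 0, with 919 at an unadjusted p under 0.05 (8.63%) and a smallest adjusted p of 0.33. With a fixed block, added after the data were seen and leaving 4 residual degrees of freedom, it called 0, with 967 (9.08%) and a smallest adjusted p of 0.12. The median standard error of a difference was 0.25 without the pairs and 0.15 with the fixed block. No single gene's time change passed the test of a difference from that of control cells, in these or in the other fits run for it.

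At an unadjusted p under 0.05 the fits differed most for the stress and cholesterol lists. With the fixed block 25 of 34 amino acid response genes were under it, 21 of 29 ER genes, 11 of 17 aminoacyl-tRNA synthetases and 10 of 18 cholesterol genes, against 9.08% of all genes. Without the pairs these counts were 9, 1, 0 and 0, against 1.54%, and with the random block 26, 7, 8 and 10, against 8.63%. The genes so counted with the fixed block all had a difference below 0 in these 4 lists. The list medians under CsA and in controls were 0.45 and 1.60 for the amino acid response, 0.52 and 1.19 for the ER list, 0.22 and 0.57 for the synthetases and -0.70 and -0.20 for cholesterol. Without CsA 48 h replicate 3 the CsA medians of these lists were 1.22, 1.04, 0.46 and -0.68. The first 3 thus lay closer to the control medians, and that of cholesterol hardly moved. Those control medians still include control 48 h replicate 3, so the 2 sides are not alike. Array medians in control 48 h replicates 1, 2 and 3 were 1.80, 1.92 and 1.30 for the amino acid response. They were 2.01, 1.42 and 0.33 for the ER list, 0.74, 0.75 and 0.29 for the synthetases and -0.58, 0.05 and -0.05 for cholesterol. None of these genes passed adjustment over all genes.

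Single genes, chosen after their values were seen, are given with the unadjusted p of the fit without pairs and of the fixed block. DNAJB9, an ER co-chaperone, was at 10.28, 10.00 and 9.78 in CsA cells and at 8.87, 8.29 and 8.54 in control cells at 12 h. At 48 h it was at 12.79, 12.46 and 9.60 and at 12.70, 12.51 and 9.89. The groups were thus apart at 12 h and overlapped at 48 h (difference of the time changes -1.53, unadjusted p = 0.23 and 3.3e-05, adjusted p with the fixed block 0.17). MANF, a secreted ER stress protein, had the smallest p with the fixed block (difference -1.12, unadjusted p = 0.24 and 1.1e-05, adjusted p 0.12). SOX9 changed by -2.63 under CsA and -3.74 in controls (difference 1.11, unadjusted p = 0.0089 and 0.0031), and PNPLA3 by -1.25 and -0.34 (difference -0.91, unadjusted p = 0.0043 and 0.0016). INSIG1 changed by -1.01 and -0.48 (difference -0.54, unadjusted p = 0.11 and 0.0021) and DDIT3 by 3.09 and 4.81 (difference -1.72, unadjusted p = 0.18 and 0.047).

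**Figure D5:**
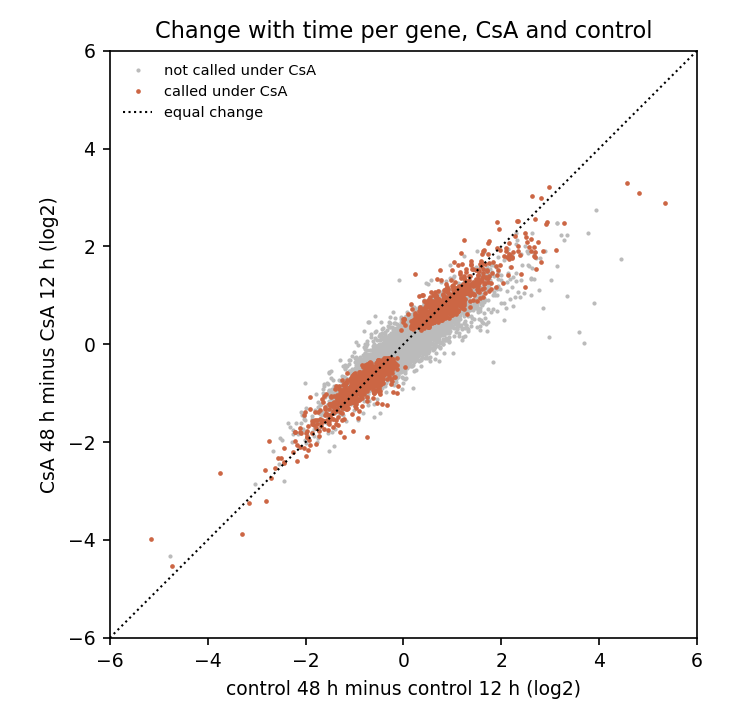
Change from 12 h to 48 h (log2) of each of the 10650 tested genes in CsA cells (vertical) against control cells (horizontal), with genes called under CsA in orange and equal change as a dotted line. Points lie along a slope of 0.76, and the rising genes farthest to the right lie below the line. The slope was 1.16, 0.86 and 0.25 for CsA 48 h replicates 1, 2 and 3 taken singly.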

How the data were processed

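Messenger RNA of HK-2 cells was measured on 12 Affymetrix arrays. The authors deposited log2 expression values, and GCRMA is the tool named, per the submitters' processing notes; no version or setting is given in the sources used here, and the log2 scale was read from the values. GCRMA normalises arrays by quantiles, so a shift of most genes together would not show.

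Of 54675 probe sets, 62 controls, 1801 with several gene symbols and 11721 with none were left out of the 41091 with 1 symbol. Symbols come from the platform annotation, and 41037 were matched in RefSeq's gene table by gene ID. Each of 19775 genes was read from its probe set of highest mean over 12 arrays, and 10650 above 4 on at least 3 arrays were tested. Arrays have no read depth, and their number limits the precision. Promoter sequences are RefSeq's (GRCh38.p14), 250 bases before 1 start per gene, matched by symbol.

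Tests were two-sided, with limma 3.58.1 in R 4.3.3: 4 group means over 12 arrays (8 residual degrees of freedom), eBayes, Benjamini-Hochberg adjustment over all tested genes, threshold 0.05. The contrasts were CsA 48 h minus 12 h, the same in controls, and their difference. The fit was tested on simulated data. For the contrast of times under CsA the simulated noise was independent between arrays, so an array that stands apart in many genes was not covered. Labels number the replicates, but same-numbered CsA arrays at 12 h and 48 h did not deviate together (r = 0.22, -0.14 and 0.05), so the times were not paired. Within a time, same-numbered CsA and control arrays did (r = 0.36, 0.52 and 0.59 at 12 h; 0.78, 0.54 and 0.74 at 48 h), and the difference of the time changes was also fitted with these pairs as blocks. Where all 3 CsA arrays of a time were under 4, the fold is a bound, the other group's mean against 4. Alternatives covered the arrays in the fit, variance models, array weights, blocks, filters, probe set choice, normalization and each array left out.

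Named genes are the 15 rising and 15 falling with the largest called change and no overlap, the 3 members of each list of 5 or more tested genes with the largest statistic, and PPIA, PPIB, PPIF, RCAN1, TXNIP, HSPA5, DDIT3, HAVCR1 and LCN2. Any other gene named as a list member that was called was chosen after its values were seen. The comparison, the 39 gene lists and the members were chosen with earlier results of these data known.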

Additional observations from a re-analysis of the deposited data

How the results depend on the processing

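The number of genes called between 48 h and 12 h under CsA, 1496, depends on how the spread is estimated and on single arrays. It was 30 with the 6 CsA arrays alone and 0 when these had a variance trend and robust moderation, 784 with array weights by group, 933 with array weights, whose estimate stopped before it converged, and 988 with no filter on low values. Those array weights were 0.59, 0.01 and 0.23 for CsA 48 h replicates 1, 2 and 3, so replicate 2 and not replicate 3 counted least. With the replicate number as a block the count was 2379, although the numbers pair arrays within a time and not between the times. Leaving out 1 CsA array gave 418 to 3923 genes, the highest without CsA 48 h replicate 3. Chosen after the data were seen, 4527 were called without replicate 3 of both 48 h groups and 3876 with the 5 CsA arrays alone that omit it. Centring, quantile normalization, the stricter filter, a floor at 4, all probe sets averaged, a random block of pairs, and trend with robust moderation on 12 arrays stayed within 1.5 times. In control cells 2749 became 5984 with array weights and 4881 without replicate 3 of both 48 h groups, and ran from 1284 to 3210 with 1 array left out. The difference between the time changes stayed at 0 in all, with or without the replicate block, and its smallest adjusted p was lowest, 0.079, with no filter on low values and 0.12 with the replicate block within each time. With 1 array left out the change of HSPA5 ran from -0.11 (without CsA 48 h replicate 1) to 0.95, and that of RCAN1 from -0.13 (without CsA 48 h replicate 2) to 0.58; both reversed in sign, with no call there. The causes were not tested.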
